A study of Mus musculus with 20 samples.

Results

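Pax3 and Pax6 are developmental transcription factor genes, and the chromatin around them was described here from chromatin immunoprecipitation followed by sequencing (ChIP-seq) in mouse embryonic fibroblasts. Members were all peaks that overlapped chr1:78050000-78300000 (the Pax3 window, 250 kb) or chr2:105480000-105570000 (the Pax6 window, 90 kb) in the mm9 genome build. Of 1324083 peaks in 12 lists, 277 overlapped a window, 228 at Pax3 and 49 at Pax6. The loci were selected on their H3K27me3 peaks, so H3K27me3 values in them are given as a description, with no test. The cells were C57BL/6 fibroblasts from E13.5 embryos, proliferating at passage 4, either wild type (WT) or homozygous for the L allele of Rb1 (Rb1L/L, here RbL), which changes a surface of the retinoblastoma protein where proteins with an LXCXE motif bind. Each genotype had 2 H3K27me3 libraries, 2 of TFIIIC, 1 of CAP-D3 and 1 of CAP-H2, and there were 8 input samples. Formaldehyde at 1% fixed the cells for all antibodies, after 2 mM EGS (a longer crosslinker) for all but TFIIIC. Nothing in the labels says that libraries of a group came from separate cultures, so the spread between them may be technical.

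H3K27me3 is the histone mark that Polycomb repressive complex 2 sets, and in broad domains it covers many genes of developmental regulators in cells that do not use them. Pax3 acts in neural crest and muscle precursors, and Pax6 in the eye and central nervous system. CAP-D3 and CAP-H2 are non-SMC subunits of condensin II, a complex that loops and compacts chromosomes, with CAP-H2 as its kleisin. TFIIIC recruits RNA polymerase III to tRNA genes and also occupies sites that lack the polymerase. Peak lists hold no expression values, so neither the cell type nor the activity of the 2 genes was checked. In RefSeq (GRCm38.p6), the listed neighbours of Pax3 are Epha4 and Gm2102, followed by Sgpp2, and those of Pax6 are Rcn1 and Elp4, which overlaps Pax6.

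Polycomb domains of developmental genes are known to form over DNA rich in CG dinucleotides, and the RefSeq promoter table, which matched 1 of the 2 genes, gives 2 starts for Pax6. They are shown so that a reader can see that feature in the sequence of a gene whose locus is described here; where they lie relative to the domain was not established. Each runs from 250 bases before to 50 bases after a start, on the plus strand of chromosome 2 in GRCm38.p6, a build other than that of the peaks. Capitals mark each CG, which reads the same on both strands.
Pax6 at chr2:105668646-105668945: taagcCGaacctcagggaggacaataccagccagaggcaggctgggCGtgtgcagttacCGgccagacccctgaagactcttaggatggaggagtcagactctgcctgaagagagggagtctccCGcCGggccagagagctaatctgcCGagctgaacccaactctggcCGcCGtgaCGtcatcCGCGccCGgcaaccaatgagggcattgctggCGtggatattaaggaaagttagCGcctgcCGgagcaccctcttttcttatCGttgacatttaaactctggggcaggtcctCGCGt
Pax6 at chr2:105682213-105682512: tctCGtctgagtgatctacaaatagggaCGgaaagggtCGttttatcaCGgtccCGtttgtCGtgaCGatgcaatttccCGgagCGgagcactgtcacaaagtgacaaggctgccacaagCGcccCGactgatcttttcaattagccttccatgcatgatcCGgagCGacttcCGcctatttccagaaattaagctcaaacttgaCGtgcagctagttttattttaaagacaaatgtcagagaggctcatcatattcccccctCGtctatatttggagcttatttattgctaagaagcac
The first holds 18 CG and the second 16, where the median of 32851 promoters of this length was 7. At least as many CG were found in 29.7% and 33.0% of all promoters, respectively. The 10 promoters listed for 7 of the 9 Pax genes held 7 to 30 CG, with 30 at a start of Pax2 and 7 at another start of Pax2 and at Pax8. The counts describe these windows of sequence only.

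At Pax6, H3K27me3 formed a compact block, and its outermost peaks ended at nearly the same positions in each library. Merging the 4 lists gave a domain at chr2:105493411-105533728, 40.3 kb wide, with a peak in all 4. It was the eighth widest of 7497 merged regions that all 4 libraries shared, whose median width was 3183 bp. WT replicate 1 had 11 peaks in it, which covered 90.02% of its length. WT replicate 2 covered 94.1% with 3 peaks, RbL replicate 1 95.1% with 4, and RbL replicate 2 99.1% with 2. The same stretch was thus called in more pieces where the list was shorter, as WT replicate 1 held 24741 peaks in all and RbL replicate 2 held 56396; WT replicate 2 held 45979 and RbL replicate 1 held 43951.

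The widest Pax6 peak of WT replicate 1 lay at chr2:105518712-105528874, at 10.2 kb the 42nd widest of its list. In WT replicate 2, a peak of 22.2 kb at chr2:105496322-105518478 ranked 14th by width, and its neighbour at chr2:105518536-105533728, of 15.2 kb, ranked 53rd. RbL replicate 1 had peaks of 17.6 kb at chr2:105495468-105513073 (44th), 5.5 kb at chr2:105513086-105518551 and 14.7 kb at chr2:105518604-105533277 (71st). These lists break the block at almost the same point, right of its middle. WT replicate 1, WT replicate 2 and RbL replicate 1 each had a gap between positions 105518479 and 105518711. RbL replicate 2 had no gap there, and its peak at chr2:105494022-105533404, of 39.4 kb, was the fourth widest of its list. By score, the widest peaks shared a value of 3100 with 643 to 1448 peaks of their list, at rank 48 to 61, so that rank by score does not order them. The highest Pax6 score, 3203 at chr2:105498024-105501368 in WT replicate 1, ranked 10th there. Outside the block, H3K27me3 peaks in the window were few and narrow, with 1, 0, 2 and 1 in WT replicates 1 and 2 and RbL replicates 1 and 2.

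**Figure D1:**
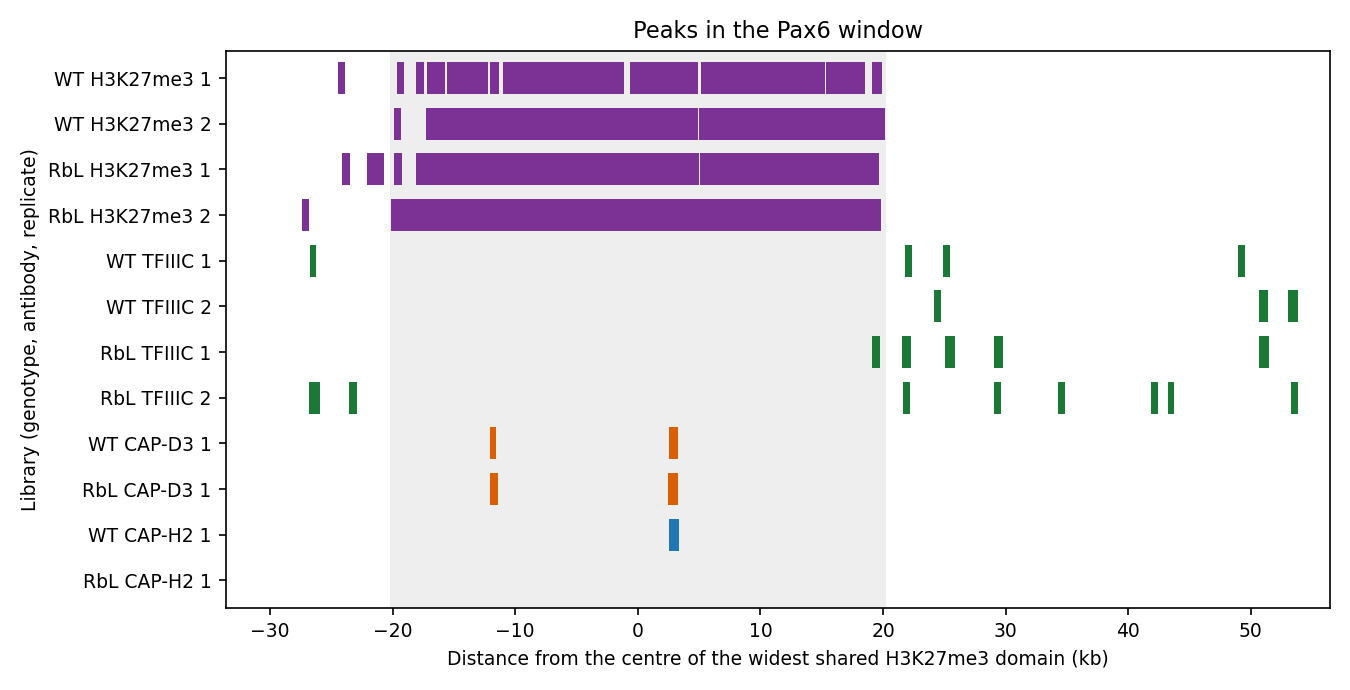
Peaks of the 12 lists in the Pax6 window, 1 row per library, against distance in kb from the centre of the shared H3K27me3 domain (grey). H3K27me3 peaks fill 90.02% to 99.1% of the grey block, both CAP-D3 lists have 2 peaks inside it, and TFIIIC peaks lie almost entirely outside.

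At Pax3, H3K27me3 was spread over a longer stretch in many separate peaks. The Pax3 window held 35 and 54 peaks in WT replicates 1 and 2, and 40 and 53 in RbL replicates 1 and 2, with median widths of 663, 940.5, 936.5 and 778 bp. Numbers in the 2 genotypes overlapped. The widest merged domain, chr1:78165029-78218473, measured 53.4 kb and was the fourth widest of the 7497 shared regions. Its peaks covered 63.3% of it in WT replicate 1 (18 peaks), 89.7% in WT replicate 2 (15), 89.9% in RbL replicate 1 (13) and 94.9% in RbL replicate 2 (6). WT replicate 1 stands apart here, with gaps that sum to 16.8 kb and a widest gap of 6301 bp, against 2.48 to 4.47 kb in the other 3.

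The middle and right of this domain carried the widest peaks in every library. In WT replicate 1 the widest was chr1:78203130-78210471, of 7.34 kb and 111th by width. WT replicate 2 had a peak of 18.6 kb at chr1:78199492-78218059 (31st), and RbL replicate 1 had 15.6 kb at chr1:78183276-78198876 (63rd) and 13.0 kb at chr1:78199278-78212228 (102nd). In RbL replicate 2, a peak of 38.2 kb at chr1:78180259-78218473 was the sixth widest and, with a score of 3233, shared the first rank by score with 1 other peak. Most peaks that began before position 78180220 were smaller. The largest of them measured 663 bp in WT replicate 1, 4098 bp in WT replicate 2 and 2333 bp in RbL replicate 1, while RbL replicate 2 had a peak of 7128 bp at chr1:78165279-78172406 (score 2995, 489th by width). In this left part, 9 stretches of 29 to 677 bp between positions 78169266 and 78180220 were outside the peaks of at least 3 libraries. In the domain, peaks with a score of 3100 or more held 22.6%, 57.2%, 63.0% and 71.5% of its length in WT replicates 1 and 2 and RbL replicates 1 and 2. For the Pax6 domain, these shares were 71.7%, 92.6%, 93.6% and 97.7%, above those of Pax3 in each library.

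To the left of the main Pax3 domain lay 5 further regions that all 4 libraries shared. The largest was chr1:78128849-78142991, 14.1 kb wide and 234th of the 7497, covered to 55.0% and 87.1% in WT and 77.0% and 93.6% in RbL. Next came chr1:78103920-78111715 (7.80 kb), chr1:78144325-78151148 (6.82 kb), chr1:78114839-78120671 (5.83 kb) and chr1:78154454-78156420 (1.97 kb). The library with the least coverage differed among these 4. It was WT replicate 1 for the first (7.58%) and the third (20.5%), RbL replicate 1 for the second (16.8%, against 50.0% in WT replicate 1) and WT replicate 2 for the fourth (67.6%, against 85.8% in WT replicate 1). On the right, 1 shared region followed, chr1:78223874-78226286. In all, 7 of 51 merged H3K27me3 regions in the Pax3 window and 1 of 4 in the Pax6 window had a peak in all 4 libraries, next to 8.39% of the 89378 merged regions on placed chromosomes. At Pax3, 3 merged regions were in both RbL and no WT library (5.18% over all regions) and 1 in the 2 WT libraries alone (0.736% over all regions), and Pax6 had none of either kind. These 4 regions were 604 to 975 bp wide and lay outside the shared domains.

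**Figure D2:**
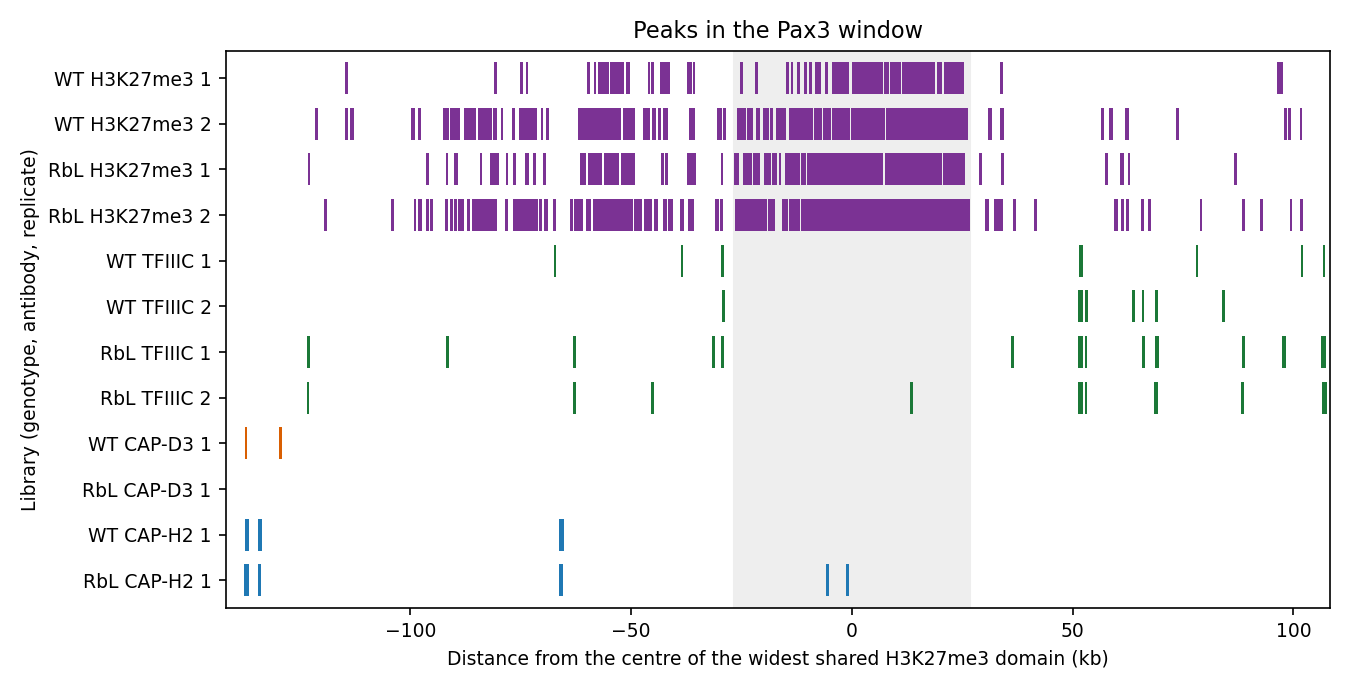
Peaks of the 12 lists in the Pax3 window, 1 row per library, against distance in kb from the centre of the widest shared H3K27me3 domain (grey). H3K27me3 extends well to the left of the grey domain, while only 1 TFIIIC peak and 2 CAP-H2 peaks, all in RbL, fall inside it.

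Agreement between the 4 H3K27me3 libraries was closer at Pax6 than at Pax3. Of 43.2 kb under a peak in any library at Pax6, 35.1 kb (81.2%) was under a peak in all 4. At Pax3, it was 41.2 of 129.65 kb (31.8%), and over all placed chromosomes 11.8 of 98.6 Mb (11.9%). The longer Pax3 window held 51 merged regions against 4 at Pax6. WT replicate 1 covered only 51.0 kb of it, which limits what all 4 libraries can share. The part of window choice and of this library in the contrast was not tested. Taken from the first to the last peak of each library, the ends show the same contrast. At the left end of the Pax6 domain, the first peaks began within 543 bp of each other, and at the right end the last peaks stopped within 451 bp. For Pax3 the spreads were 1409 and 1379 bp. The left end at Pax6 rests on narrow first peaks of 569 to 588 bp. Gaps of 970, 2073 and 1152 bp followed them in WT replicates 1 and 2 and RbL replicate 1, and 42 bp in RbL replicate 2. After these gaps, peaks began at 105495493, 105496322, 105495468 and 105494022. The stretch chr2:105494523-105495467, of 945 bp, was outside the peaks of at least 3 libraries. At Pax3, WT replicate 1 also began with a peak of 541 bp, before a gap of 2828 bp. Over the 103 shared H3K27me3 domains of at least 20 kb, the median spread was 1063 bp on the left and 996 bp on the right. The left spread was as small as at Pax6 or smaller in 26 of the 103, and the right spread in 24. In mean covered share, 15 of the 103, Pax6 included, were at or above its 94.6%, and 18, Pax3 included, were at or below its 84.5%. The Pax3 mean was lowered by WT replicate 1 (63.3%), as the other 3 libraries covered 89.7% to 94.9% of the domain.

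**Figure D3:**
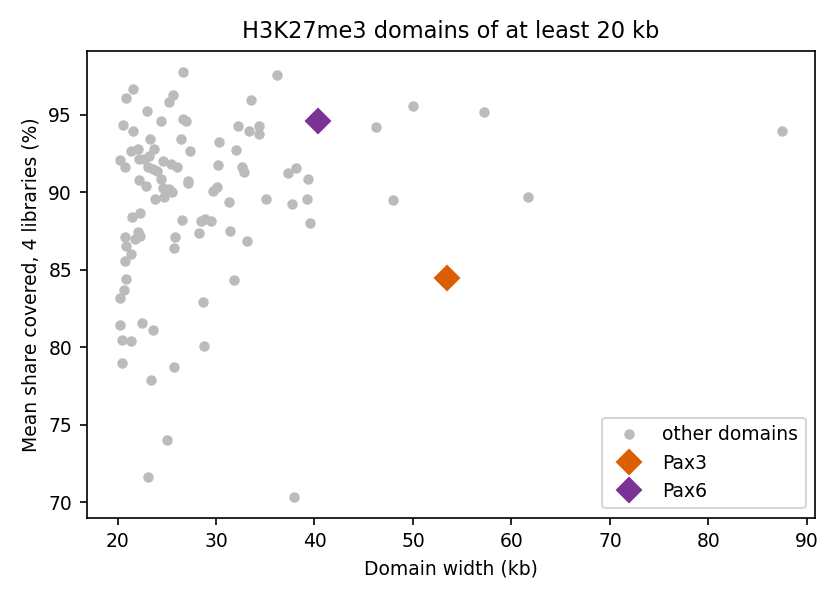
Width in kb of the 103 H3K27me3 domains of at least 20 kb shared by the 4 libraries, against the mean share of the domain covered by peaks. Pax6 (purple) has 94.6% of 40.3 kb covered, and Pax3 (orange) 84.5% of 53.4 kb.

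Coverage of the whole windows put both loci near the top of the genome for H3K27me3. In the Pax6 window, the WT libraries had 41.0% and 42.1% under peaks, and the RbL libraries 44.8% and 45.1%. Both RbL values were above both WT values, a mean difference of 3.38 percentage points. Such an order needs a peak in both RbL libraries, and 64.9% of 90 kb tiles had none in RbL replicate 1. It was found in 15.3% of all 29311 tiles of 90 kb along the placed chromosomes. As many or more bases were covered in 29, 57, 62 and 82 of these tiles in WT replicates 1 and 2 and RbL replicates 1 and 2, and in 29 tiles (0.0989%) in all 4 libraries. The Pax6 window is itself among the tiles and is included in each of these numbers. The Pax3 window was covered to 20.4% (WT replicate 1), 37.9% (WT replicate 2), 30.0% (RbL replicate 1) and 43.2% (RbL replicate 2). These genotypes overlapped, and the mean difference of 7.42 percentage points rested on WT replicate 1: without it, RbL minus WT was −1.33 percentage points. Of 10546 tiles of 250 kb, 21, 10, 21 and 10 reached the Pax3 value in the 4 libraries, and 9 (0.0853%) did so in all.

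RbL H3K27me3 lists covered a larger share of the genome, with 1.71% and 2.25% of placed chromosomes, than WT lists, with 0.907% and 1.70%. Relative to that, the Pax3 window was covered 22.5 and 22.3 times as densely as the genome in the WT libraries and 17.5 and 19.2 times in the RbL libraries. Both RbL values were thus the lower ones, with a mean log2 difference of −0.29, an order found in 5.83% of the 250 kb tiles. The order needs a peak in both WT libraries, and 56.6% of these tiles had none in WT replicate 1. Among tiles that could show it, the order was therefore more common than 5.83%. For Pax6 the WT ratios, 45.2 and 24.8, overlapped the RbL ratios, 26.2 and 20.1. The depth of the libraries, which moves both peak number and peak width, is unknown, and its part in these differences was not tested.

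The Pax3 window was less covered by H3K27me3 than the Pax6 window in each of the 4 libraries, with differences (Pax3 minus Pax6) of −20.6 to −1.91 percentage points and a mean of −10.4 ± 8.81 (SD, n = 4). This order depends on where the windows end. With 50 kb added on each side of both, Pax3 was the more covered by 5.09 percentage points, and the added bases make up a larger share of the shorter Pax6 window. The nearest H3K27me3 peak to the right of the Pax6 window lay 276 to 461 kb away, and the nearest to its left 11.2 to 269 kb. At Pax3, the nearest peaks outside the right edge were 591 to 990 bp long and only 0.329 to 3.33 kb from it, and those inside the edge were 575 to 628 bp long. The left edge of the Pax3 window had its nearest outer peak at 22.4 to 65.8 kb.

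**Figure D4:**
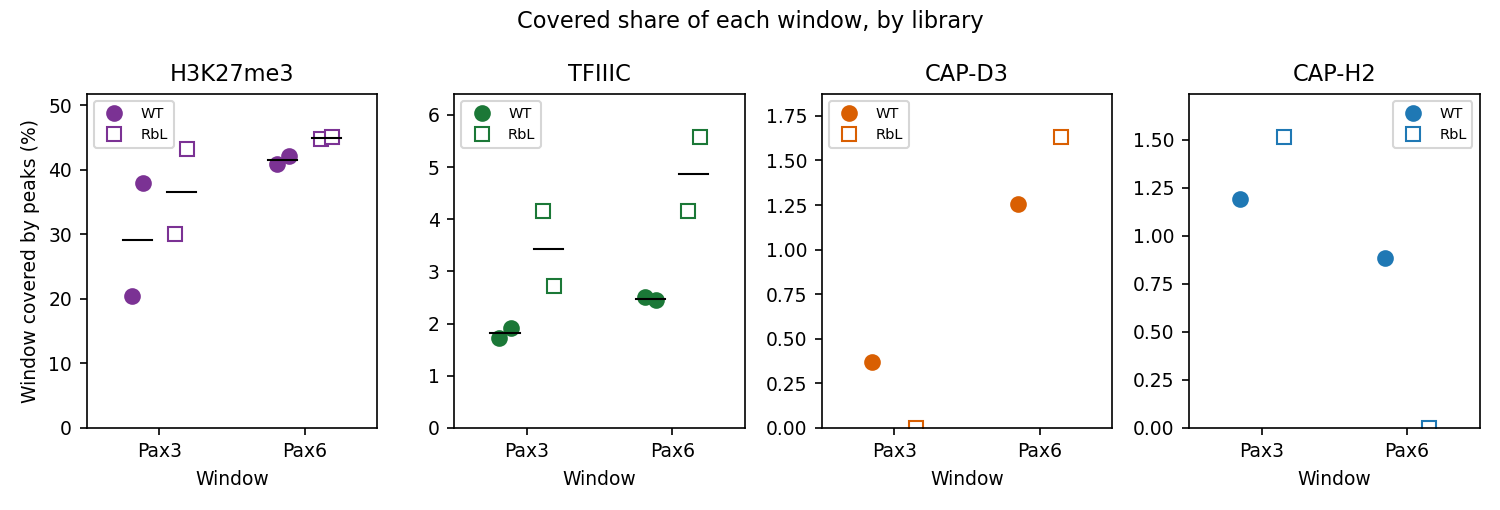
Share of each window covered by peaks, in percent, for each antibody, with filled circles for WT libraries, open squares for RbL libraries and black lines at the means of 2 libraries. H3K27me3 values at Pax6 lie close together at 41.0% to 45.1%, while those at Pax3 run from 20.4% to 43.2%.

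TFIIIC peaks covered little of the Pax3 window and a more ordinary share of the Pax6 window, and the widest H3K27me3 domain of each locus had a TFIIIC peak in only 1 of 4 libraries. At Pax3, 7 and 7 peaks in WT and 13 and 9 in RbL covered 1.72%, 1.91%, 4.16% and 2.72% of the window. At Pax6, 4 and 3 peaks in WT and 5 and 8 in RbL covered 2.50%, 2.45%, 4.16% and 5.58%. Each of these 8 values was below the share of all placed chromosomes under TFIIIC peaks in the same library, which was 5.66% and 7.30% for WT, 10.2% and 10.4% for RbL. The ratios to the genome ran from 0.260 to 0.408 at Pax3 and from 0.336 to 0.534 at Pax6. Against single tiles the windows stood out less: the Pax3 value was reached by 79.8%, 84.4%, 67.2% and 83.7% of 250 kb tiles in WT replicates 1 and 2 and RbL replicates 1 and 2, and the Pax6 value by 63.9%, 71.4%, 65.0% and 54.2% of 90 kb tiles. In RbL replicate 2, the 5.58% at Pax6 was close to the tile median of 6.24%.

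Both RbL libraries exceeded both WT libraries at each locus, and so did most of the genome. The mean difference was 1.62 percentage points at Pax3 and 2.39 at Pax6, and the exact permutation test (two-sided) gave p = 0.333 for each, the smallest that 2 against 2 libraries allow. The same order was found in 79.8% of 250 kb tiles and 64.3% of 90 kb tiles. Relative to the covered share of the genome, the genotypes overlapped at both loci, with log2 differences of 0.21 at Pax3 (exact permutation p 1) and 0.28 at Pax6 (exact permutation p 0.667). These log2 differences moved both ways with the choice of peaks. With a score minimum of 100 they were 0.32 at Pax3 and 1.02 at Pax6, and the genotypes no longer overlapped (exact permutation p 0.333 each). With equal numbers of top-scoring peaks they turned to −0.25 (exact permutation p 0.667) and −0.70. At Pax6 the genotypes then did not overlap either, in the opposite order (exact permutation p 0.333). The Pax6 difference in covered share turned to −0.42 percentage points (exact permutation p 0.667). Pax3 was below Pax6 in all 4 libraries, with a mean difference of −1.05 ± 1.25 percentage points (SD, n = 4; two-sided exact sign-flip permutation p 0.125, the smallest possible). In RbL replicate 1 the difference was only −0.0011, and without RbL replicate 2 the mean was −0.44.

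Inside the Pax3 domain of 53.4 kb, both WT lists and RbL replicate 1 had no TFIIIC peak. RbL replicate 2 had 1, at chr1:78204962-78205548, with a score of 157 and rank 256842 of 301874. The rest of the Pax3 window was covered to 2.19%, 2.43%, 5.29% and 3.16% in WT replicates 1 and 2 and RbL replicates 1 and 2. In the Pax6 domain of 40.3 kb, RbL replicate 1 alone had a peak, chr2:105532651-105533351 (score 143, rank 217884 of 294135), at the right end of the block. Outside the block, TFIIIC covered 4.53%, 4.44%, 6.12% and 10.1%. The smaller shared Pax3 domains were not free of it. Counting every H3K27me3 region shared by all 4 libraries, no TFIIIC peak of either WT list overlapped one at Pax3 or Pax6 (1.34% and 1.62% of the lists did). At Pax3, 1 of 13 peaks did in RbL replicate 1 (list 1.78%) and 3 of 9 in RbL replicate 2 (list 1.94%), among them chr1:78128599-78129224 and chr1:78146349-78146915. At Pax6, 1 of 5 and 0 of 8 did. The list shares are no measure of enrichment here, because the windows were chosen for H3K27me3. The widest domain alone filled 21.4% of the Pax3 window and 44.8% of the Pax6 window. Merged H3K27me3 regions of any library, which held 129.65 kb of the 250 kb Pax3 window, were overlapped there by 4 of 7 and 2 of 7 peaks in WT (5.98% and 6.7% of the lists) and by 9 of 13 and 5 of 9 in RbL (7.74% and 8.09% of the lists). Other broad domains often lacked TFIIIC as well: of the 103 H3K27me3 domains of at least 20 kb, 38.8% had no peak in either WT list and 35.9% had one in at most 1 of the 4 lists.

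**Figure D5:**
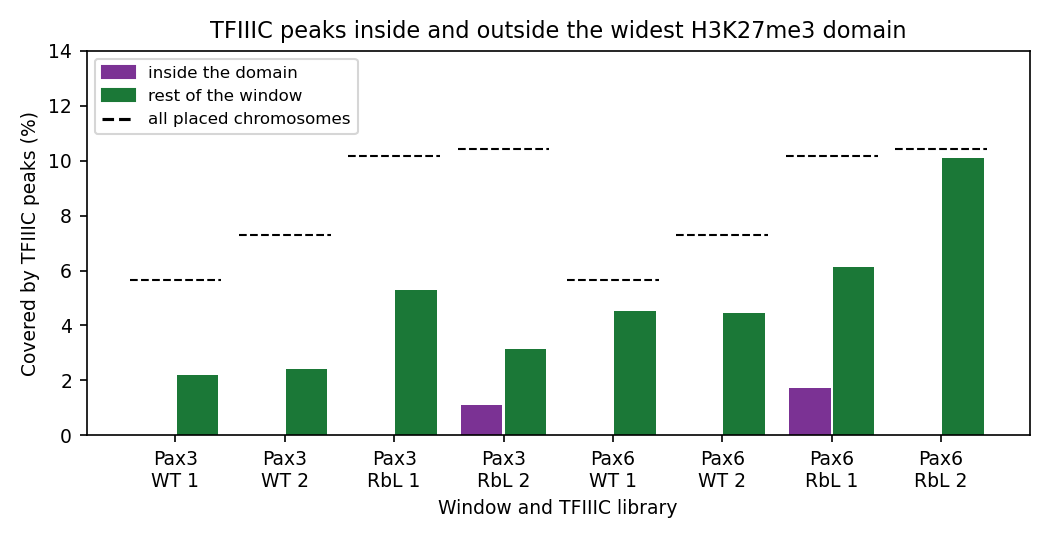
Percent of bases under TFIIIC peaks inside the widest shared H3K27me3 domain (purple) and in the rest of the window (green), for each TFIIIC library at Pax3 and Pax6, with the share over all placed chromosomes as a dashed line. The domain is at 0 in 6 of the 8 pairs and reaches 1.74% at most.

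A TFIIIC site to the right of the Pax3 domain was found in every library. It spanned chr1:78242981-78244176, and its WT scores were 373 and 827, its RbL scores 559 and 1002. Within their lists these peaks ranked 24395 of 200350, 22145 of 239960, 43347 of 294135 and 28336 of 301874, in the top 9.23% to 14.7%. It was the highest-scoring and the widest Pax3 peak of both WT lists, at 877 and 943 bp. In RbL, that place was taken by a site at the edge of the window, chr1:78297907-78299417, with scores of 933 and 1365 and widths of 1350 and 1216 bp (ranks 18280 and 16524 by score). There, WT replicate 1 had a peak of 626 bp with a score of 218, and WT replicate 2 had none. The score of a peak depends on library depth and input, so these values do not measure a difference between genotypes.

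Of 21 merged TFIIIC regions at Pax3, 1 was in all 4 libraries, and of 13 at Pax6 none was, next to 17.8% of the 435555 merged TFIIIC regions on placed chromosomes. Regions in both RbL and no WT library numbered 3 at Pax3 and 1 at Pax6 (9.42% over all regions), and none was in the 2 WT libraries alone (1.62% over all regions). The 3 at Pax3 were chr1:78068285-78069035, chr1:78128599-78129263 and chr1:78280001-78280721, and that at Pax6 was chr2:105542598-105543356. Their 8 peaks had scores of 89.6 to 231 and ranked between the top 49.7% and the top 94.96% of their lists. A site just right of the Pax6 block, chr2:105535126-105535911, was in WT replicate 1 and both RbL libraries, with scores of 139, 125 and 254. The highest Pax6 scores were 151 and 347 for WT, 175 and 302 for RbL, below the best Pax3 peak of the same library in each case.

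Condensin II peaks differed between the 2 loci in place and in subunit. At Pax6, CAP-D3 was called at 2 points inside the H3K27me3 block, and in both genotypes. The first point was chr2:105501537-105501997 in WT (461 bp, score 247, rank 11920 of 17576) and chr2:105501518-105502208 in RbL (691 bp, score 563, rank 7838 of 13233). The second was chr2:105516150-105516819 in WT (670 bp, score 345, rank 9014) and chr2:105516074-105516850 in RbL (777 bp, score 675, rank 7007). All 4 CAP-D3 peaks overlapped an H3K27me3 peak in each of the 4 H3K27me3 libraries and no TFIIIC peak. They ranked near or below the middle of their lists, between the top 51.3% and the top 67.8%. CAP-D3 peaks covered 1.26% of the Pax6 window in WT and 1.63% in RbL, which 14.7% and 9.96% of the 90 kb tiles equalled or exceeded. CAP-H2 was called once at Pax6, at the second point, in WT alone: chr2:105516106-105516902 (797 bp, score 115, rank 24902 of 42737). No RbL CAP-H2 peak, of 43151 in that list, overlapped the Pax6 window, and 48.5% of the 90 kb tiles had none either.

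At Pax3, CAP-D3 had 2 peaks in WT and none in RbL, and both lay far left of the H3K27me3 domains. They were chr1:78054330-78054746 (417 bp, score 203, rank 14244 of 17576) and chr1:78062057-78062559 (503 bp, score 182, rank 15313), at −137 and −129 kb from the centre of the main domain. Both ranks lie beyond the 13233 peaks of the RbL list, and with equal numbers of top-scoring peaks WT had 0 as well. No RbL CAP-D3 peak was found in 48.1% of 250 kb tiles either. CAP-H2 was called at 3 points in both genotypes. The first, chr1:78054186-78055169 in WT (score 117, rank 24552) and chr1:78054102-78055146 in RbL (score 306, rank 14639 of 43151), overlapped the first CAP-D3 peak. The second was chr1:78057198-78058062 in WT (score 76.4, rank 33907) and chr1:78057302-78057893 in RbL (score 81.4, rank 38740), and the third chr1:78125431-78126562 in WT (score 308, rank 10025) and chr1:78125461-78126324 in RbL (score 89.1, rank 37109). None of these overlapped an H3K27me3 or a TFIIIC peak of any library.

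RbL had 2 further CAP-H2 peaks, both within the main Pax3 domain: chr1:78185830-78186523 (694 bp, score 153, rank 25710) and chr1:78190513-78191100 (588 bp, score 115, rank 31565). Each overlapped an H3K27me3 peak in all 4 H3K27me3 libraries. So within the H3K27me3 domains, Pax6 had CAP-D3 in both genotypes with CAP-H2 in WT, and Pax3 had CAP-H2 in RbL with no CAP-D3. With 1 library per genotype and antibody, none of these differences has a replicate check. By the input titles, the WT condensin II libraries shared an input with WT H3K27me3 replicate 2, and the RbL ones with RbL H3K27me3 replicate 1.

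The background for these counts varied by class. Of merged CAP-D3 regions, 43.0% were called in both genotypes, as 2 of 2 were at Pax6 and 0 of 2 at Pax3, where both fell in the class of WT alone (38.5% of all). Of merged CAP-H2 regions, 54.0% were called in both, as 3 of 5 were at Pax3. The other 2 belong to the class of RbL alone (23.1% of all), and the 1 region at Pax6 to that of WT alone (22.9% of all). An H3K27me3 region shared by all 4 libraries was overlapped by 4.61% and 4.91% of CAP-D3 peaks in WT and RbL, and by 1.12% and 1.08% of CAP-H2 peaks. These shares are over whole lists, whereas the 2 windows were chosen for H3K27me3. The widest domain filled 21.4% of the Pax3 window and 44.8% of the Pax6 window, so overlaps there do not show enrichment of condensin II. Of the 103 broad H3K27me3 domains, 23.3% had a CAP-D3 peak in both genotypes and 50.5% in neither, while 72.8% had no CAP-H2 peak in either, 8.74% had one in WT alone and 4.85% in RbL alone. The combination of Pax6, CAP-D3 in both genotypes with CAP-H2 in WT alone, occurred in no other of these domains (1 of 103, 0.971%), and that of Pax3 in 1 other (1.94%). Both combinations were read from the 2 loci first and then counted. A low count is therefore built in and does not mark either locus as unusual. A peak close to the calling limit can drop out of a list, so these combinations describe the lists.

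Windows as rich in H3K27me3 as these mostly held more TFIIIC. In 12 tiles of 250 kb with a mean H3K27me3 share at or above that of Pax3, the median TFIIIC share was 3.73%, 5.30%, 7.86% and 8.57% in WT replicates 1 and 2 and RbL replicates 1 and 2, above the Pax3 value in each library, and 1 or 2 of the 12 tiles were at or below it. In 54 tiles of 90 kb at or above Pax6, of which 1 is the Pax6 window itself, the medians were 4.27%, 6.78%, 10.9% and 9.64%, again above Pax6. At or below it were 13 to 18 of the 54, that window included. Single tiles differed widely. Nearest to Pax3 in mean H3K27me3 (32.9%) were chromosome 4 from 117000001 to 117250000 (33.8%) and chromosome 5 from 140000001 to 140250000 (32.0%), with mean TFIIIC shares of 8.51% and 31.7% against 2.63% at Pax3. The next above was chromosome 2 from 74500001 to 74750000 (35.8%), with 2.29% TFIIIC. Also among the nearest were tiles starting at 115500001 on chromosome 4, 123250001 on chromosome 8 and 35500001 on chromosome 17. Their TFIIIC shares were 13.2%, 22.1% and 27.3%. Nearest to Pax6 (43.2%) were chromosome 8 from 123570001 to 123660000 (43.2%) with 27.9% TFIIIC and chromosome 2 from 152820001 to 152910000 (43.2%) with 19.8%, against 3.67% at Pax6. Chromosome 13 from 40770001 to 40860000 (43.0%) had 2.12% TFIIIC, and condensin II peaks of both subunits in both genotypes. The nearer chromosome 2 from 151830001 to 151920000 (43.1%) had 14.9% TFIIIC and no condensin II peak. Tiles starting at 28440001 on chromosome 5 (43.5%) and 115110001 on chromosome 11 (43.7%) had 9.17% and 20.9% TFIIIC.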

How the data were processed

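ChIP-seq peaks of 12 immunoprecipitated libraries were used; the 8 input samples have no list here. The authors aligned reads with Bowtie2 2.3.0 and called peaks with MACS 1.4.0rc2 on mm9, per the submitters' processing notes, with settings not given in the sources used here, and deposited 1 list per library, so replicates were not pooled. The score of each peak is the authors' own, deposited without a column name. Peak names and values (smallest near 50, many ties at 3100) match MACS' scale of 10 times the negative log10 p-value. Scores were used within their own list alone, for ranks and minimums. Read depth is unknown, which limits the precision of every peak number, width and covered share. Positions are 1-based.

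Members and lists were chosen with earlier results of these data known. Per library, peaks overlapping a window by at least 1 base were ranked in their list by score and width (rank: number of peaks above it plus 1), and bases under peaks were counted. The same was done in adjoining tiles of each window's length along 20 placed chromosomes, whose lengths were taken as the last peak end in any list. Peaks of an antibody were merged where they shared a base. Named by rule were H3K27me3 domains shared by all 4 libraries, the widest H3K27me3 peak per library, each condensin II peak, the highest and widest TFIIIC peaks, TFIIIC regions shared by all 4 or by 1 genotype's libraries alone, and the tiles nearest in mean H3K27me3; a few further peaks were chosen after their values were seen. The broad domains of at least 20 kb were added after the data were seen. TFIIIC shares were compared by two-sided exact permutation tests in Python 3.11.15 with NumPy 2.4.6 and SciPy 1.17.1, tested on simulated data. Alternatives were a score of at least 100, equal peak numbers, other window bounds, a 1 kb gap in merging, each replicate left out, and a replicate block.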

Additional observations from a re-analysis of the deposited data

How the results depend on the processing

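Of 160 recomputed values for 30 results, 132 counted as unchanged, 8 of them identical by construction (replicate block). For H3K27me3 differences this meant the same direction and a shift below the spread between libraries. For counts and condensin II shares it meant a change within 1.5 times, and for TFIIIC differences the same direction alone. The Pax6 TFIIIC log2 difference went from 0.28 to 1.02 with the score minimum of 100, yet counted as unchanged. So did the Pax3 TFIIIC covered share difference, 1.62 against 0.228 percentage points with equal numbers of top-scoring peaks. The Pax3 H3K27me3 difference did as well, at 7.42 against 0.84 percentage points without RbL replicate 2. The causes of changes were not tested. TFIIIC tests could not pass 0.05 in any setting, so they show nothing about stability. Leaving out a replicate turned the Pax3 H3K27me3 difference (RbL minus WT, range −1.33 to 16.2 percentage points, negative without WT replicate 1) and the Pax3 TFIIIC log2 ratio to the genome (−0.11 to 0.54, negative without RbL replicate 1). With equal numbers of top-scoring peaks, TFIIIC differences turned to −0.42 percentage points and −0.70 log2 at Pax6 and −0.25 log2 at Pax3, H3K27me3 differences became −0.14 log2 at Pax3 and 2.39 percentage points at Pax6, and WT CAP-D3 at Pax3 fell to 0 peaks and 0%. In windows widened by 50 kb, the Pax3 minus Pax6 H3K27me3 difference turned to 5.09 percentage points and the Pax6 genotype difference was 1.74. CAP-D3 covered 0.595% (WT) and 0.773% (RbL) at Pax6, RbL CAP-D3 at Pax3 had 1 peak covering 0.269%, WT CAP-H2 covered 0.419% at Pax6, and CAP-H2 at Pax3 had 5 (WT) and 8 (RbL) peaks. In the middle 50% of the windows, the Pax6 H3K27me3 difference was 0.992 percentage points, CAP-D3 had 0 peaks (0%) at Pax3 in WT and 1 at Pax6 in each genotype, WT CAP-H2 covered 1.77% at Pax6, and CAP-H2 at Pax3 had 1 (WT) and 3 (RbL) peaks. With the score minimum of 100, RbL CAP-H2 at Pax3 had 3 peaks covering 0.931%.

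With the replicate number as a block, the mean differences are the same by construction (TFIIIC 1.62 percentage points at Pax3 and 2.39 at Pax6, two-sided exact sign-flip p 0.5 each, the smallest for 2 pairs). Over tiles, same-numbered libraries deviated together with correlations of 0.13 to 0.43, but with 2 pairs they share only a number.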
